A study of Mus musculus with 8 samples.

Results

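The genes described here encode Wnt ligands, their Frizzled receptors, the co-receptors Lrp5 and Lrp6, and the secreted antagonists that hold the ligands or co-receptors back. They were chosen by gene symbol alone (Wnt, Fzd, Sfrp and Dkk families, with Lrp5, Lrp6, Wif1 and Frzb), which gave 42 of the 55188 genes in the tables. RNA came from hippocampus taken before fear conditioning. The 2 animals labelled KO (KO1 and KO2) are C57BL/6 mice designated as knockouts of Pyk2, the calcium-activated non-receptor tyrosine kinase whose gene is Ptk2b. The 2 animals labelled WT (WT1 and WT2) are C57BL/6 wild-type mice, and the labels describe mice of both groups as transgenic. Each animal number has 2 technical replicates, so 8 libraries were measured. The sources used here do not give age, sex or how the knockout was made. Whether a number stands for 1 mouse or a pool is also not stated, so p-values refer to the spread of the numbered units, called animals here.

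Wnt proteins are lipid-modified secreted signals that need the carrier Wls to leave the cell. At the target cell they bind a Frizzled receptor together with Lrp5 or Lrp6, which stabilises beta-catenin and switches on TCF/LEF target genes, or they act through Frizzled on cell polarity and calcium. Secreted Frizzled-related proteins (the Sfrp genes and Frzb) and Wif1 bind Wnt outside the cell, whereas the classical Dickkopf proteins bind the LRP co-receptors. In the hippocampus Wnt signals are known for roles in dentate neurogenesis and in synapse formation, and the choroid plexus and meninges beside it are known sources of Wnt ligands and antagonists.

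Values are FPKM, fragments scaled by transcript length and by the fragments of the library, so levels of different genes can be set side by side per length. Total FPKM was 489121 to 506216 per library and 26482 to 27871 genes were above 0. Markers of dentate granule cells, of CA1 and of CA2 and CA3 pyramidal cells were present in each animal, with summed levels of 119 to 145, 172 to 212 and 465 to 517 FPKM. The targeted gene Ptk2b was not lower in the animals labelled KO. It stood at 277, 279, 264 and 274 FPKM in the KO libraries, against 232, 232, 203 and 202 FPKM in the WT libraries (log2 fold change 0.34, SE 0.07, adjusted p = 0.158 in limma). Gene-level FPKM cannot show whether an exon or the protein is missing, and KO below means the animals as labelled. Choroid plexus markers stood apart between the groups. All 21 listed markers were lower in both KO animals than in both WT animals, and none was at 0 in every library. Their summed level was 319 and 1301 FPKM in KO1 and KO2, against 4446 and 7800 FPKM in WT1 and WT2. The marker Ttr alone made up most of each sum. Ttr was at 180 and 934 FPKM in KO1 and KO2, against 3366 and 6325 FPKM in WT1 and WT2. Summed ependymal markers were at 35.9 and 60.1 FPKM in KO animals against 90.0 and 80.4 FPKM in WT animals, meningeal fibroblast markers at 47.4 and 73.7 against 115 and 189 FPKM, and blood markers at 149 and 158 against 287 and 317 FPKM. In bulk tissue, fewer cells of a type and less RNA per cell cannot be told apart.

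Of the 42 genes, 28 reached 0.5 FPKM in 2 animals and were tested, 14 stayed below that level, and Dkk1 and Dkk4 were listed at 0 in all 8 libraries. In limma, fitted over 16667 genes on log2(FPKM + 1), 0 of the 28 passed a Benjamini-Hochberg adjusted p of 0.05, against 0.054% of all genes tested. At an unadjusted p under 0.05, 7 were lower in KO and 0 higher, against 11.4% and 4.11% of all genes. These 7 were the antagonists Sfrp5 and Sfrp1, the receptors Fzd4, Fzd7 and Fzd6, and the co-receptors Lrp5 and Lrp6, with no ligand and no Dickkopf gene among them. The split moved with the scaling: after median-of-ratios scaling Fzd6 left the group and Dkk3 was higher in KO (unadjusted p = 0.0841 and 0.0477 in limma), and after quantile normalization Fzd6 left it and Wnt7a and Fzd3 were higher (unadjusted p = 0.313, 0.0487 and 0.0487 in limma). Over all fits 5 to 7 of the 28 were lower and up to 3 higher, and Fzd4, Fzd7, Lrp5, Sfrp1 and Sfrp5 were lower in each fit. Both KO animals lay below both WT animals for 9 of the 28 (30.7% of all genes) and above them for 3 (18.4% of all genes). The median log2 fold change of the 28 was -0.019, beside -0.022 over all genes tested. An exact two-sided permutation test of 2 against 2 animals cannot give a p below 0.333, which is the value it gave wherever the groups did not overlap.

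**Figure D1:**
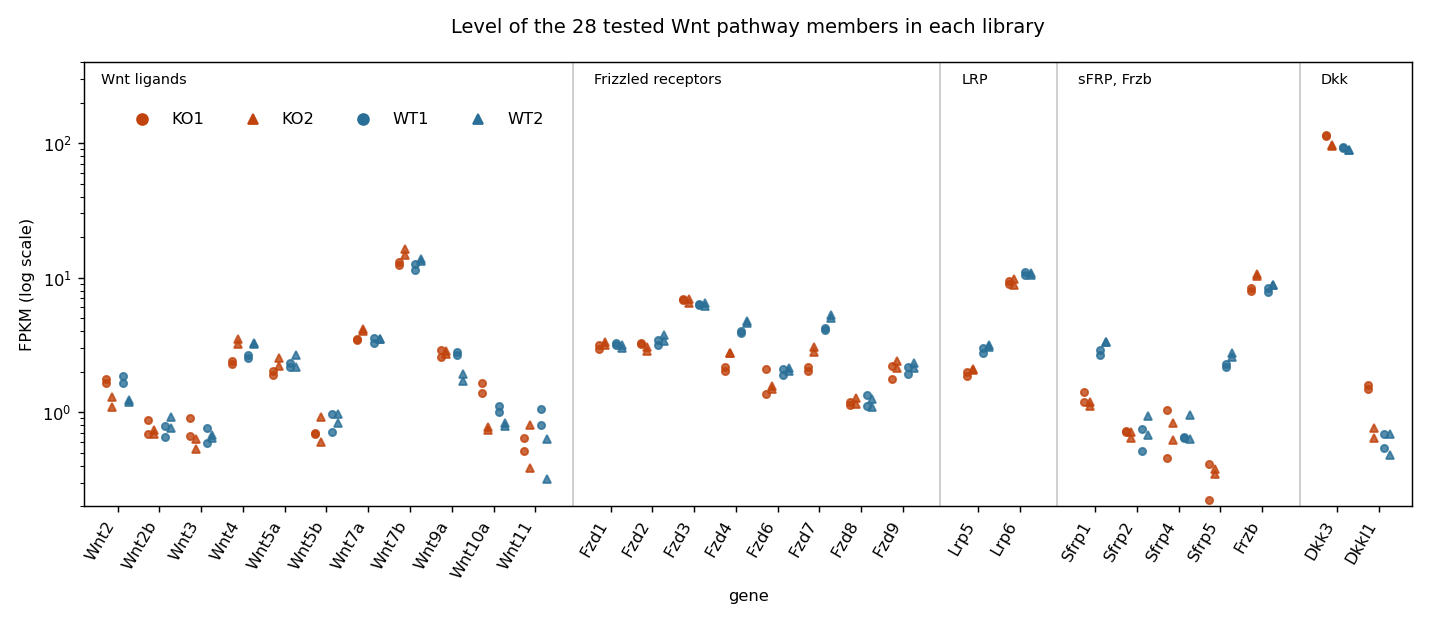
FPKM on a log scale of the 28 tested members in each of the 8 libraries, KO left and WT right of each gene, with circles for animal 1 and triangles for animal 2 of each group. Dkk3 is the most abundant member in each library, at 88.8 to 115 FPKM. The KO libraries lie below the WT libraries for Sfrp5, Sfrp1, Fzd4, Fzd7, Lrp5 and Lrp6, and above them for Fzd3 and Dkk3.

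Levels of the secreted antagonists differed most for Sfrp5, a Wnt-binding protein of the sFRP family (ENSMUSG00000018822, chromosome 19, 42197971 to 42202252 in mm10, minus strand, protein-coding). Sfrp5 was at 0.223 and 0.411 FPKM in the libraries of KO1 and at 0.346 and 0.376 FPKM in those of KO2, against 2.28 and 2.18 FPKM in WT1 and 2.59 and 2.75 FPKM in WT2. All 4 KO libraries were far below all 4 WT libraries. The highest upper confidence limit deposited for a KO library was 0.573 FPKM and the lowest lower limit for a WT library was 1.82 FPKM. The group means were 0.339 ± 0.0310 FPKM in KO and 2.45 ± 0.310 FPKM in WT (SD, n = 2 each), a difference of -86.2%. The log2 fold change was -1.36 (SE 0.10, 95% interval -1.61 to -1.11) and the adjusted p in limma was 0.0512, just short of the threshold. Sfrp5 reached the minimum level in WT animals only, so its entry into the test already depended on the WT level. The adjusted p was between 0.0260 and 0.355 over the alternatives and lay under the threshold in 7 of 14 of them.

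Sfrp1, the most abundant Sfrp gene in the WT libraries (ENSMUSG00000031548, chromosome 8, 23411502 to 23449632), was at 1.20 and 1.41 FPKM in KO1 and 1.11 and 1.20 FPKM in KO2, against 2.65 and 2.91 FPKM in WT1 and 3.33 and 3.34 FPKM in WT2. Again no KO library reached a WT library, and the deposited limits of the groups stayed apart at 1.61 FPKM for the highest in KO and 2.41 FPKM for the lowest in WT. Group means were 1.23 ± 0.108 FPKM in KO and 3.05 ± 0.392 FPKM in WT (SD, n = 2 each). The log2 fold change was -0.86 (SE 0.10, 95% interval -1.12 to -0.60, adjusted p = 0.0981).

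The other Wnt-binding antagonists did not share this pattern. Frzb, the sFRP relative also called sFRP3, was the most abundant of them and made up 62.6% of their summed level. Frzb was at 8.30 and 7.96 FPKM in KO1 and 10.2 and 10.6 FPKM in KO2, against 7.83 and 8.44 FPKM in WT1 and 8.82 and 8.87 FPKM in WT2. The KO2 libraries were the high ones and KO1 lay among the WT libraries (log2 fold change 0.10, SE 0.12, 95% interval -0.20 to 0.41, adjusted p = 0.721), and without KO2 the log2 fold change was -0.06. Sfrp2 averaged 0.696 ± 0.0336 FPKM in KO and 0.717 ± 0.117 FPKM in WT, and Sfrp4 averaged 0.738 ± 0.0118 FPKM in KO and 0.723 ± 0.101 FPKM in WT (SD, n = 2 each). The technical replicates of Sfrp4 in KO1, at 0.457 and 1.04 FPKM, were the 1 pair among the 112 pairs of tested members whose deposited intervals did not overlap. Wif1, the Wnt inhibitory factor, stayed below the minimum level but was at 0.369, 0.412, 0.441 and 0.435 FPKM in the KO libraries, all above the WT libraries at 0.134, 0.288, 0.15 and 0.306 FPKM. The deposited limits of the groups overlapped, with the lowest in KO at 0.231 FPKM and the highest in WT at 0.454 FPKM. With no minimum level the log2 fold change of Wif1 was 0.21 (SE 0.03, adjusted p = 0.357 in limma), opposite in sign to Sfrp5 and Sfrp1.

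Choroid plexus markers were lower in the same animals, and their part in the sFRP levels was not tested. Their values within and between the groups were as follows. The marker sum was made up mostly of Ttr, so its ratios here and below do not stand for all listed markers evenly. The summed markers were 4.08 times as high in KO2 as in KO1, and Sfrp5 was 1.14 times and Sfrp1 0.883 times as high. Between WT2 and WT1 the marker sum differed 1.75 times, Sfrp5 1.20 times and Sfrp1 1.20 times, all higher in WT2. Over the groups, the mean marker sum was 7.56 times and Sfrp5 7.23 times as high in WT as in KO, and Sfrp1 2.48 times. The order of the 4 animals by marker sum was KO1 < KO2 < WT1 < WT2. It was also the order of 5 of the 28 tested genes, namely Sfrp5, Fzd4, Fzd7, Lrp5 and Wnt5b, and of 11.9% of all genes tested. The order was not particular to choroid plexus. Summed markers of meningeal fibroblasts, of blood and of vessel and mural cells had it too, and those of ependyma did not. Vessel and mural markers were at 133 and 143 FPKM in KO1 and KO2, against 163 and 177 FPKM in WT1 and WT2. The part of these cells in the members' levels was not tested. The place of Sfrp5 rested on the first library of KO1: without it, or with the second technical replicates only, Sfrp5 did not have this order, while Fzd4, Fzd7 and Lrp5 kept it.

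**Figure D2:**
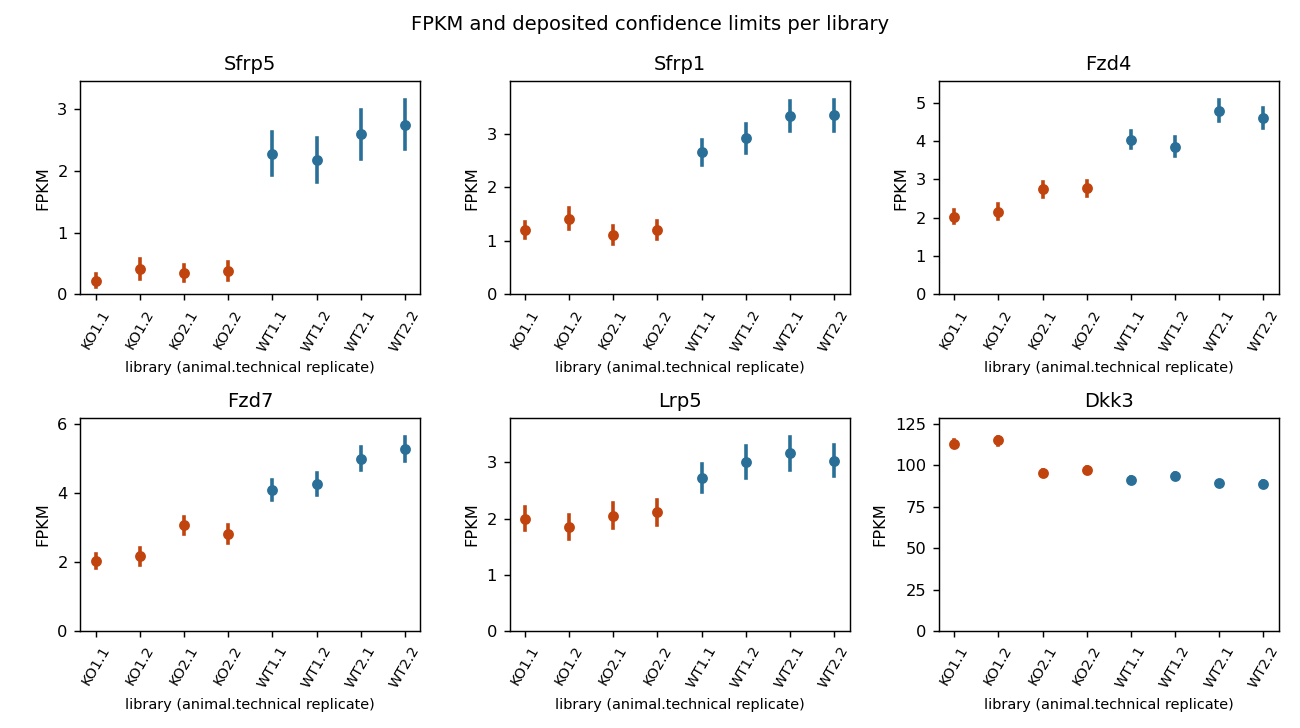
FPKM (points) with the deposited lower and upper confidence limits (bars) in the 8 libraries for 5 members lower in KO and for Dkk3. For Sfrp5 the KO bars end at 0.573 FPKM and the WT bars begin at 1.82 FPKM, and Dkk3 stands highest in both libraries of KO1.

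Among the Frizzled receptors, Fzd4 and Fzd7 were at 0.561 and 0.541 times their WT level in KO, and the other tested receptors differed by less. Fzd4 is the receptor of the retinal and brain vessel signal Norrin and also binds Wnt (ENSMUSG00000049791, chromosome 7, 89404355 to 89413134, plus strand). It was at 2.03 and 2.16 FPKM in KO1 and 2.74 and 2.77 FPKM in KO2, against 4.04 and 3.85 FPKM in WT1 and 4.79 and 4.61 FPKM in WT2. The groups did not overlap, and within each group animal 2 was the higher. The means were 2.42 ± 0.464 FPKM in KO and 4.32 ± 0.531 FPKM in WT (SD, n = 2 each), and the log2 fold change was -0.64 (SE 0.13, 95% interval -0.97 to -0.31, adjusted p = 0.140).

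Fzd7, a receptor of the beta-catenin branch in many stem cells (ENSMUSG00000041075, chromosome 1, 59482424 to 59486955, plus strand), was at 2.04 and 2.17 FPKM in KO1 and 3.06 and 2.81 FPKM in KO2, against 4.10 and 4.25 FPKM in WT1 and 5.0 and 5.28 FPKM in WT2. Its libraries showed the same order of animals as Fzd4. The means were 2.52 ± 0.589 FPKM in KO and 4.66 ± 0.679 FPKM in WT (SD, n = 2 each), and the log2 fold change was -0.69 (SE 0.15, 95% interval -1.07 to -0.31, adjusted p = 0.158). Between KO2 and KO1 the level of Fzd4 differed 1.31 times and that of Fzd7 1.40 times, beside 4.08 times for the choroid plexus marker sum. Between WT2 and WT1 the differences were 1.19 times for Fzd4, 1.23 times for Fzd7 and 1.75 times for the marker sum, whose part in these levels was not tested.

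Fzd6, which acts in planar polarity, was at 2.08 and 1.37 FPKM in KO1 and 1.57 and 1.48 FPKM in KO2, against 2.10 and 1.90 FPKM in WT1 and 2.04 and 2.12 FPKM in WT2. The first library of KO1 lay among the WT libraries and the other KO libraries below them. Group means were 1.63 ± 0.144 FPKM in KO and 2.04 ± 0.0581 FPKM in WT (SD, n = 2 each). The log2 fold change was -0.21 (SE 0.08, 95% interval -0.42 to -0.00, adjusted p = 0.320). Fzd3, which guides axons and was the most abundant Frizzled, was at 6.78, 6.88, 6.98 and 6.53 FPKM in the KO libraries, against 6.41, 6.22, 6.20 and 6.52 FPKM in the WT libraries (log2 fold change 0.09, SE 0.06, 95% interval -0.06 to 0.23, adjusted p = 0.507). Both KO animals were above both WT animals for Fzd3, but a WT library at 6.52 FPKM came within the last digit of a KO library at 6.53 FPKM. Fzd1 averaged 3.14 ± 0.117 FPKM in KO and 3.15 ± 0.0944 FPKM in WT, and Fzd2 averaged 3.10 ± 0.215 FPKM in KO and 3.42 ± 0.174 FPKM in WT. Fzd8 averaged 1.19 ± 0.0306 FPKM in KO and 1.20 ± 0.0336 FPKM in WT, and Fzd9 2.12 ± 0.198 FPKM in KO and 2.14 ± 0.136 FPKM in WT (SD, n = 2 each). The 95% intervals of the log2 fold change were -0.19 to 0.18 for Fzd1, -0.31 to 0.09 for Fzd2, -0.20 to 0.19 for Fzd8 and -0.23 to 0.21 for Fzd9. Fzd5 and Fzd10 stayed below the minimum level, with animal means of 0.172 to 0.431 FPKM. The summed Frizzled level was 22.6 and 24.0 FPKM in KO1 and KO2, against 26.9 and 28.9 FPKM in WT1 and WT2.

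Of the co-receptors that Frizzled needs for the beta-catenin branch, neither passed the threshold, and both had lower values in the KO libraries than in the WT libraries. Lrp5 (ENSMUSG00000024913, chromosome 19, 3584828 to 3686564) was at 2.0 and 1.85 FPKM in KO1 and 2.05 and 2.11 FPKM in KO2, against 2.73 and 3.01 FPKM in WT1 and 3.16 and 3.03 FPKM in WT2. The KO libraries lay close together and clear of the WT libraries, with the deposited limits apart at 2.33 and 2.48 FPKM. Its means were 2.0 ± 0.110 FPKM in KO and 2.98 ± 0.161 FPKM in WT (SD, n = 2 each), and the log2 fold change was -0.41 (SE 0.08, 95% interval -0.61 to -0.21, adjusted p = 0.131).

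Lrp6, the more abundant co-receptor, was at 8.97 and 9.42 FPKM in KO1 and 8.85 and 9.72 FPKM in KO2, against 11 and 10.4 FPKM in WT1 and 10.4 and 10.8 FPKM in WT2. The groups did not overlap, although the deposited limits did. Its means were 9.24 ± 0.0642 FPKM in KO and 10.6 ± 0.0330 FPKM in WT (SD, n = 2 each), and the log2 fold change was -0.18 (SE 0.05, 95% interval -0.31 to -0.06, adjusted p = 0.212). Lrp6 was 1.01 times as high in KO2 as in KO1 and 0.996 times as high in WT2 as in WT1, beside 4.08 and 1.75 times for the choroid plexus marker sum, whose part in the co-receptor levels was not tested.

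The deposited intervals separated the groups for 5 members. For Sfrp5, Sfrp1, Fzd4, Fzd7 and Lrp5 the deposited intervals of all 4 KO libraries lay below those of all 4 WT libraries, as for 1.93% of all genes tested. No member lay wholly above (0.372% of all genes). These intervals cover counting error within a library, not the spread between animals. None of these 5 genes overlaps another annotated gene, whereas Fzd3 and Fzd6 and 6 further tested members do, and since no strand setting is given, their reads cannot be fully separated from the neighbour's. The same holds for the pathway genes named below other than Tinagl1, Tle3, Sostdc1 and Celsr1.

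**Figure D3:**
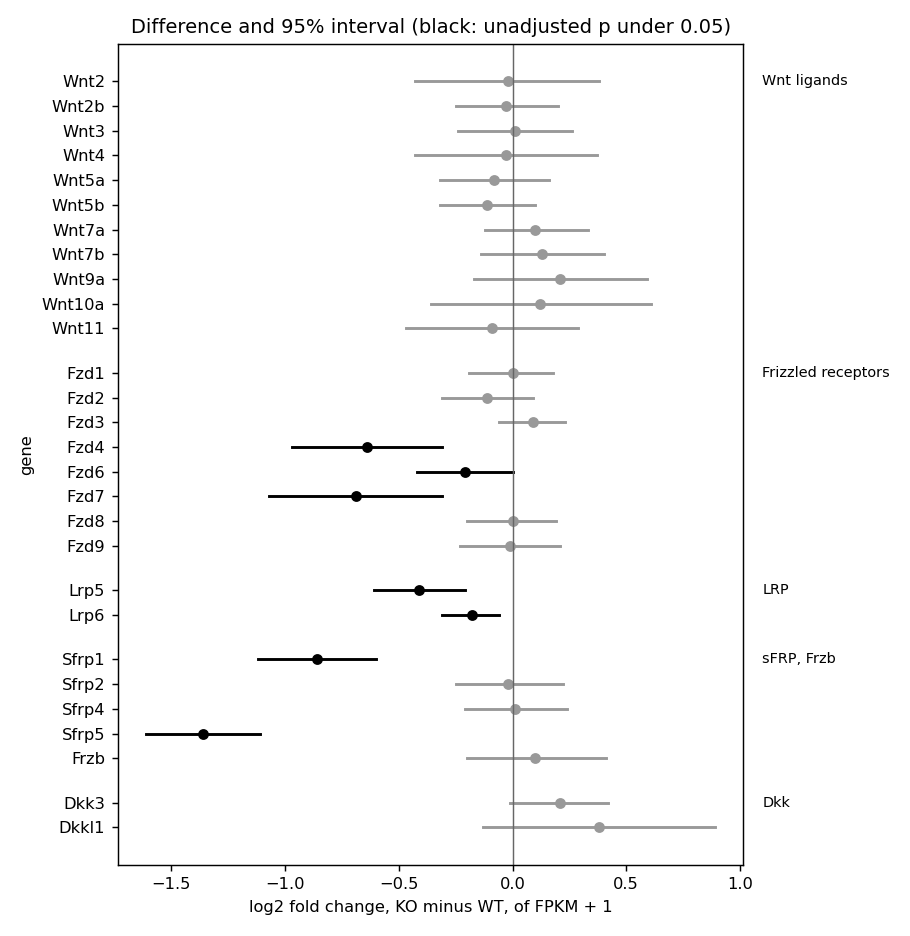
Log2 fold change (KO minus WT, of FPKM + 1) with its 95% interval from limma for the 28 tested members, ordered by role, in black where the unadjusted p was under 0.05. The black genes are Sfrp5, Sfrp1, Fzd4, Fzd7, Fzd6, Lrp5 and Lrp6, all left of 0, while the intervals of all ligands and both Dickkopf genes include 0.

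The stretches upstream of Sfrp5, Fzd4 and Fzd7 are shown because these are the 3 of the 7 lower genes with an entry in the RefSeq promoter table used here (GRCm38.p6). Each is the 250 bases before the annotated start, 5′ to 3′ on the strand of the gene, at chr19:42202253-42202502 (minus), chr7:89404116-89404365 (plus) and chr1:59481897-59482146 (plus). Capitals mark matches, on either strand, of the GC box GGGCGG and of the TCF/LEF core in its forms CTTTGA and CTTTGT; the OTX core TAATCC was searched in the same way, OTX2 being a factor of choroid plexus identity.
Sfrp5: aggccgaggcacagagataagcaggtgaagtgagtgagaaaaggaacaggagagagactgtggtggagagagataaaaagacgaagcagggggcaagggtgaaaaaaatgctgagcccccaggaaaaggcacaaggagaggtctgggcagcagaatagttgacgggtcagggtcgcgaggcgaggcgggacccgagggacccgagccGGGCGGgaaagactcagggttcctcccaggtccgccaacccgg
Fzd4: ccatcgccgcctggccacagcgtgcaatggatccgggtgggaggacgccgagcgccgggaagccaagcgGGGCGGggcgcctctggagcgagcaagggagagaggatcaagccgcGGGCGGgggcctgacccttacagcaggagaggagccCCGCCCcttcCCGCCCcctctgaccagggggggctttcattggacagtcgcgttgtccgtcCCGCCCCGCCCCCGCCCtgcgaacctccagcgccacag
Fzd7: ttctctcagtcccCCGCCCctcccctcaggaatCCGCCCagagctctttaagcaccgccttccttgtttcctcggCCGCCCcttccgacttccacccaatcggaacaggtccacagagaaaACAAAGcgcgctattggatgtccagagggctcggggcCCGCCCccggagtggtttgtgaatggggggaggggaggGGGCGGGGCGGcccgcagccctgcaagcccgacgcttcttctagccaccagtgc
The Fzd4 window held 7 GC boxes and that of Fzd7 held 6, some sharing bases, and the Sfrp5 window held 1. Of all 32851 windows, 32.7% held at least 1. How many held as many as 6 was not counted, so the numbers per window have no comparison here. CTTTGT was found once, on the opposite strand of the Fzd7 window, and in 16.5% of all windows. CTTTGA, found in 13.8% of all windows, and TAATCC, found in 6.25%, were in none of the 3. The E-box CANNTG, left in lower case, was found once upstream of Sfrp5, not upstream of Fzd4 or Fzd7, and in 66.2% of all windows. The G and C content was 72.8% upstream of Fzd4, 65.2% upstream of Fzd7 and 59.6% upstream of Sfrp5, with a median of 52.4% over all windows. A match is a run of letters and was not tested as a site. The RefSeq start of Fzd7 lies upstream of its start in GENCODE. For Fzd4 the window ends at 89404365, past the GENCODE start at 89404355, so its last bases lie within the GENCODE gene.

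Of the 19 Wnt genes 11 were tested, and 0 differed between the groups at an unadjusted p under 0.05, beside 15.5% of all genes. So few ligands cannot be set apart from that share. Wnt7b, which acts on brain vessels and on dendrites of hippocampal neurons, made up 43.0% of the summed ligand level. It was at 12.5 and 13.0 FPKM in KO1 and 14.8 and 16.2 FPKM in KO2, against 12.7 and 11.4 FPKM in WT1 and 13.8 and 13.3 FPKM in WT2. KO2 stood highest and KO1 lay among the WT libraries, and the log2 fold change was 0.26 without KO1 and 0.00 without KO2. With all animals it was 0.13 (means 14.1 ± 1.94 FPKM in KO and 12.8 ± 1.02 FPKM in WT, SD, n = 2 each; SE 0.11, 95% interval -0.14 to 0.40, adjusted p = 0.599). Wnt7a, its close relative and a synaptic organiser, was at 3.51, 3.45, 4.04 and 4.18 FPKM in the KO libraries, against 3.29, 3.54, 3.49 and 3.49 FPKM in the WT libraries (log2 fold change 0.10, SE 0.09, 95% interval -0.12 to 0.33, adjusted p = 0.620). Here too only KO2 stood clear of the WT libraries.

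Several ligands were alike in animals of different groups. Wnt2 averaged 1.70 FPKM in KO1 and 1.19 FPKM in KO2, against 1.76 FPKM in WT1 and 1.21 FPKM in WT2. Wnt4 averaged 2.35 FPKM in KO1 and 3.36 FPKM in KO2, against 2.60 FPKM in WT1 and 3.23 FPKM in WT2. For both, the animals numbered 1 resembled each other across the groups, as did those numbered 2, and the group means differed by less than the spread of the animals (Wnt2 1.44 FPKM in KO and 1.48 FPKM in WT, Wnt4 2.85 FPKM in KO and 2.91 FPKM in WT). Wnt9a was at 2.74 and 2.77 FPKM in KO1 and KO2, against 2.74 and 1.82 FPKM in WT1 and WT2, so WT2 alone was low. Wnt10a was at 1.51 and 0.756 FPKM in KO1 and KO2, against 1.05 and 0.806 FPKM in WT1 and WT2, and KO1 alone was high. Wnt5a, the ligand of the polarity and calcium branches, averaged 2.16 ± 0.275 FPKM in KO and 2.33 ± 0.126 FPKM in WT, and Wnt5b 0.728 ± 0.0424 FPKM in KO and 0.869 ± 0.0439 FPKM in WT (SD, n = 2 each; adjusted p = 0.731 and 0.555). Wnt3, known for its part in adult dentate neurogenesis, averaged 0.684 ± 0.143 FPKM in KO and 0.669 ± 0.0128 FPKM in WT, Wnt2b 0.746 ± 0.0488 FPKM in KO and 0.778 ± 0.0824 FPKM in WT, and Wnt11 0.586 ± 0.0147 FPKM in KO and 0.701 ± 0.322 FPKM in WT.

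The other 8 ligands were low. Wnt1, Wnt3a, Wnt6, Wnt8a, Wnt8b, Wnt9b, Wnt10b and Wnt16 stayed below the minimum level, with Wnt3a and Wnt8a at most 0.0318 FPKM in any library. Wnt8b was at 0.160, 0.112, 0.203 and 0.106 FPKM in the KO libraries, below all WT libraries at 0.255, 0.224, 0.245 and 0.425 FPKM. The deposited limits of the groups overlapped, with the highest in KO at 0.372 FPKM and the lowest in WT at 0.11 FPKM. With no minimum set, the log2 fold change of Wnt8b was -0.17 (SE 0.05, adjusted p = 0.409 in limma). Wif1 and Wnt8b were the only ones of 12 members below the minimum with an unadjusted p under 0.05 in the limma fit with no minimum. Over all genes, 3741 of 34097 reached that level in this fit. The threshold was passed by 0 of the 12 members and by 0 of all genes. The summed ligand level was 30.5 and 33.7 FPKM in KO1 and KO2, against 30.3 and 30.9 FPKM in WT1 and WT2.

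The Dickkopf family was represented almost wholly by Dkk3, a secreted relative that pyramidal neurons of the hippocampus express and that is not known to block Wnt in the manner of Dkk1. Dkk3 (ENSMUSG00000030772, chromosome 7, 112116017 to 112159057) was the most abundant of the 42 genes, with 53.7% of their summed FPKM. It was at 113 and 115 FPKM in KO1 and 95.5 and 97.3 FPKM in KO2, against 91.4 and 93.8 FPKM in WT1 and 89.1 and 88.8 FPKM in WT2. All KO libraries stood above all WT libraries, but KO2 was nearer to the WT libraries than to KO1, and without KO1 the log2 fold change was 0.09. The means were 105 ± 12.4 FPKM in KO and 90.8 ± 2.59 FPKM in WT (SD, n = 2 each), and the log2 fold change was 0.21 (SE 0.08, 95% interval -0.01 to 0.42, adjusted p = 0.342). The other markers listed for CA1 and subiculum summed to 212 and 172 FPKM in KO1 and KO2, against 178 and 176 FPKM in WT1 and WT2, so KO1 was the high animal there as well; the part of this in the Dkk3 level was not tested.

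Dkkl1, a gene related to Dkk3, showed the same high animal at a far lower level. It was at 1.59 and 1.49 FPKM in KO1 and 0.643 and 0.767 FPKM in KO2, against 0.692 and 0.540 FPKM in WT1 and 0.692 and 0.482 FPKM in WT2. The KO2 libraries overlapped the WT libraries (log2 fold change 0.38, SE 0.20, 95% interval -0.13 to 0.89, adjusted p = 0.427), and the log2 fold change was 0.09 without KO1 and 0.67 without KO2. Dkk1 and Dkk4, the inducible LRP-binding antagonists, were listed at 0 in every library, and Dkk2 was at 0.0724 to 0.232 FPKM.

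**Figure D4:**
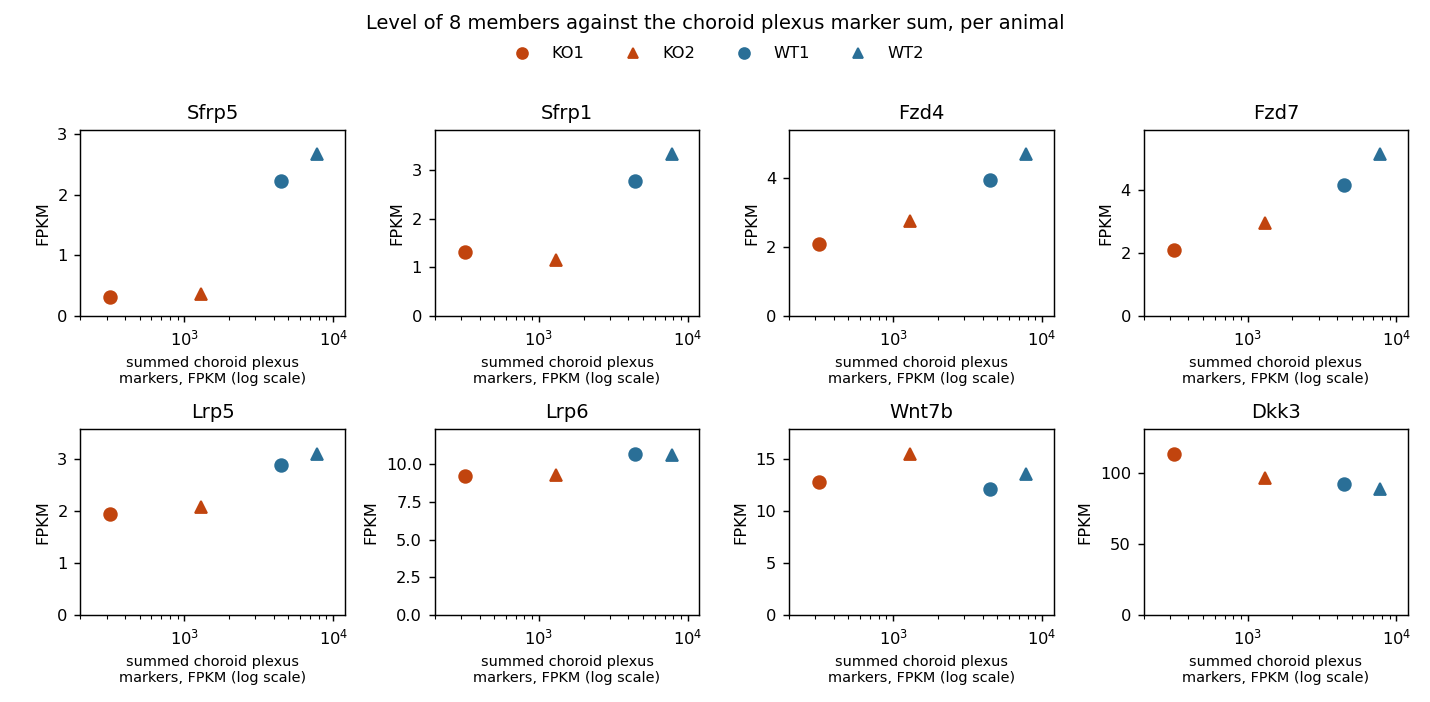
FPKM of 8 members (vertical axes, from 0) against the summed FPKM of 21 choroid plexus markers (horizontal axes, log scale) in each animal. Most of that sum is Ttr. Fzd4, Fzd7, Lrp5 and Sfrp5 stand in the order KO1, KO2, WT1, WT2 along both axes, while Wnt7b is highest in KO2 and Dkk3 in KO1; the part of choroid plexus in these levels was not tested.

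The rest of the Wnt pathway was followed through 7 lists holding 108 genes beyond the members, of which 97 were tested and 0 passed the threshold. At an unadjusted p under 0.05, 8 were higher and 12 lower in KO, which is 8.25% and 12.4% beside 4.11% and 11.4% of all genes, and the median log2 fold change of the 97 was 0.003. The list on Wnt secretion and release also holds Reck and Adgra2 of the receiving side, so its count does not describe secretion alone. In it, 4 of 6 tested genes were lower at an unadjusted p under 0.05, which is 66.7% beside 11.4% of all genes. They were the Wnt carrier Wls at 9.30 and 9.02 FPKM in KO1 and KO2, against 12.8 and 13.9 FPKM in WT1 and WT2 (log2 fold change -0.50, SE 0.06, adjusted p = 0.0981), Tinagl1, Reck and Adgra2. Reck and Adgra2, which present Wnt7 ligands to Frizzled on brain endothelium, averaged 1.70 ± 0.0590 FPKM in KO against 2.34 ± 0.0866 FPKM in WT and 2.06 ± 0.00668 FPKM in KO against 2.52 ± 0.0606 FPKM in WT (SD, n = 2 each; adjusted p = 0.186 and 0.287). Vessel and mural markers summed to 133 and 143 FPKM in KO animals and to 163 and 177 FPKM in WT animals, and their part in these levels was not tested.

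Among other receptors and modulators, 1 of 9 tested genes was lower at an unadjusted p under 0.05, or 11.1% beside 11.4% of all genes. It was Sostdc1. This secreted LRP-binding antagonist is also on the choroid plexus list. Sostdc1 was at 2.05 and 5.77 FPKM in KO1 and KO2, against 14.9 and 24.3 FPKM in WT1 and WT2 (log2 fold change -2.14, SE 0.42, adjusted p = 0.138), in the order of animals of the marker sum. Of the R-spondin group, Rspo1 was at 0.642 and 0.638 FPKM in KO1 and KO2, against 1.22 and 0.887 FPKM in WT1 and WT2 (adjusted p = 0.276). The WT2 libraries of Rspo1 were at 1.23 and 0.545 FPKM, and the second lay within the KO libraries at 0.529 to 0.756 FPKM. The 7 other tested genes of this group had an unadjusted p above 0.05, so 12.5% were lower, beside 11.4% of all genes.

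In the beta-catenin core and destruction complex, 6 of 25 tested genes were higher and 2 lower at an unadjusted p under 0.05, which is 24% and 8% beside 4.11% and 11.4% of all genes, and the list median was 0.05. Apc, the scaffold of the destruction complex, was at 34.5 FPKM in both KO1 and KO2, against 29.9 and 31.5 FPKM in WT1 and WT2 (log2 fold change 0.17, SE 0.04, adjusted p = 0.206). The kinase gene Gsk3b was at 27.1 FPKM in both KO1 and KO2, against 25.1 and 24.9 FPKM in WT1 and WT2 (adjusted p = 0.282), while Dvl2, which relays the Frizzled signal, was at 5.33 and 6.04 FPKM in KO1 and KO2, against 7.06 and 6.95 FPKM in WT1 and WT2 (adjusted p = 0.230). Of 15 tested TCF/LEF factors and cofactors 0 were higher and 3 lower, the corepressors Tle2 and Tle3 and the chromatin remodeller Chd8, with log2 fold changes of -0.35, -0.21 and -0.21. That is 20% lower, beside 11.4% of all genes.

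Target genes of beta-catenin, counted without the members Wif1 and Dkk1, gave no difference at an unadjusted p under 0.05 in 14 tested genes. Over all genes 15.5% reached that level, and so few targets cannot be set apart from that share. The median log2 fold change of these targets was -0.01. The nearest was Ccnd1, the cyclin D1 gene, at 12.6 and 13.7 FPKM in KO1 and KO2, against 14.4 and 15.3 FPKM in WT1 and WT2 (log2 fold change -0.16, 95% interval -0.32 to 0.00, adjusted p = 0.325). Prox1, a target known in dentate granule cells, was at 15.9 and 17.4 FPKM in KO1 and KO2, against 15.9 and 14.5 FPKM in WT1 and WT2. Of 27 tested genes of the polarity and calcium branches 2 were higher, the JNK genes Mapk10 and Mapk8, and 1 was lower, the polarity cadherin gene Celsr1 (log2 fold changes 0.17, 0.16 and -0.28, adjusted p = 0.246, 0.279 and 0.297). These are 7.41% and 3.7%, beside 4.11% and 11.4% of all genes. The WT1 libraries of Celsr1 were at 1.33 and 2.34 FPKM, and the first lay within the KO libraries at 1.05 to 1.59 FPKM. Summed markers of neurons were at 4283 and 4128 FPKM in KO animals, against 3879 and 3710 FPKM in WT animals. They were higher in the same animals as Mapk10, Apc and Gsk3b, and their part in these levels was not tested.

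**Figure D5:**
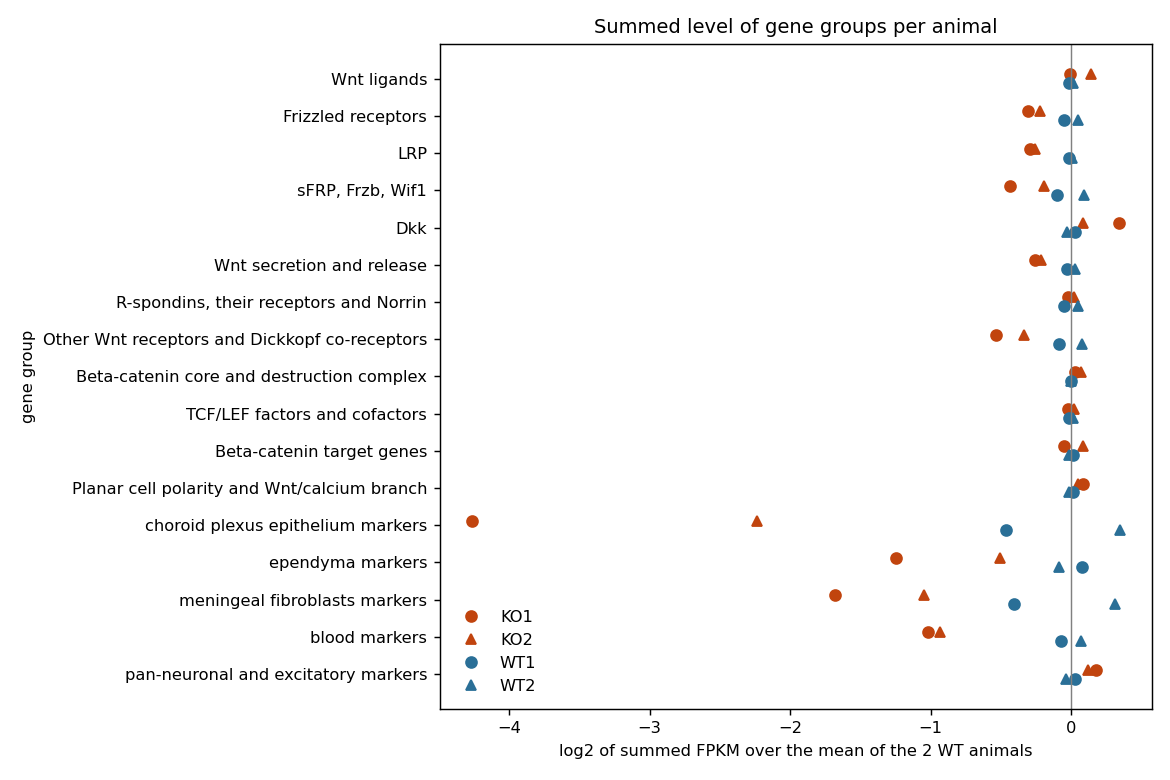
Summed FPKM of gene groups in each animal, as log2 over the mean of the WT animals, with KO above WT in each row. The Frizzled, LRP and sFRP groups lie to the left of 0 in both KO animals, the ligand, TCF/LEF and target groups lie near 0, and the choroid plexus markers lie furthest to the left.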

How the data were processed

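Libraries from total RNA of hippocampus were analysed from 1 gene table per library. Per the file headers, the authors deposited an FPKM value per gene, its confidence limits (lower, upper) and a status flag. Names in the submitters' processing notes are mm10, Bowtie (version 1) and HISAT, with no role. The sources used here do not give the program that computed the FPKM, any scaling between libraries or a strand setting, and depth in reads is unknown, so deposited intervals stand for counting error.

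Extra rows of a gene (53) were summed, and 12 values not flagged OK, none of a member, were set aside. All 42 members matched the coordinates of GENCODE M21, with starts counted from 1. Technical replicates were averaged per animal. Testing was limited to genes that reached 0.5 FPKM in 2 animals, as log2(FPKM + 1), a scale that understates changes of low genes, by limma 3.58.1 (trended variance, R 4.3.3). Differences are KO minus WT, and p-values were adjusted after Benjamini and Hochberg and read at 0.05. The procedure was tested on simulated data. Changes were added there only to genes at higher levels than Sfrp5, Sfrp1, Fzd4, Fzd7 and Lrp5, so recovery at their levels was not tested. Figures were drawn with matplotlib 3.10.9.

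Members, lists and tests were chosen with earlier results of these data known. Full statistics were given for members with an unadjusted p under 0.05 and the 2 most abundant of each role. These are library values and limma results, with group means for most of these members. Of each pathway list up to 4 genes with the smallest p were considered, not all of which are printed. Wif1, Wnt8b and the ligands given by animal were named by level, role or after their values were seen. A planned comparison of protein sequences was not made. Alternatives were other scalings, pseudocount, minimums, technical replicates, a replicate block, no variance trend and each animal left out.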

Additional observations from a re-analysis of the deposited data

How the results depend on the processing

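The count of all genes past the threshold was 9, and it was 14 with a pseudocount of 0.1, 0 with no minimum level (3741 at an unadjusted p under 0.05 in limma), 19 and 35 with the first or the second technical replicate only, 20 without the first library of KO1, 184 with the animal number as replicate block and 1 without the variance trend. With 1 animal left out it was 0 to 128 (1 without KO1, 128 without KO2, 0 without WT1 and 0 without WT2, where 1631 and 1327 had an unadjusted p under 0.05 in limma), the lone animal being assumed to vary like the other group. Among the members, 1 gene in place of 0 passed after median-of-ratios scaling (adjusted p = 0.0469), with a pseudocount of 0.1 (0.0451), with either technical replicate (0.0404 and 0.0420), without the first library of KO1 (0.0442), with the replicate block (0.0260) and without KO2 (0.0440), and this was Sfrp5 each time. With 1 animal left out that count was 0 to 1. Its log2 fold change was -2.53 with a pseudocount of 0.1 and -1.45 to -1.25 otherwise. Under the block 1 other pathway gene, Sostdc1, passed in place of 0.

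The labels do not say what the animal numbers mark, and the deviations of same-numbered animals correlated at 0.107 across 16667 genes, so the block is a hint from the data, not the design. The median log2 fold change of the members, -0.019, was 0.078 after quantile normalization, -0.074 with the first technical replicate and -0.051 to -0.009 with 1 animal left out, and the median over all genes moved by less than 0.1 under either scaling. Frzb changed sign without KO2, at -0.06 (0.26 at most with 1 animal left out). The causes of these moves were not tested. No other member given full statistics passed or changed sign under any alternative, but with 1 animal left out the log2 fold change ranged from 0.09 to 0.67 for Dkkl1, from 0.09 to 0.32 for Dkk3 and from 0.00 to 0.26 for Wnt7b. With 2 animals per group and no read depth, differences at levels under 0.5 FPKM rest on little data.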
